A study of Mus musculus and Homo sapiens with 352 samples.

Results

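Short CTCF loops were described here: pairs of CTCF-bound anchors with less than 50 kb between their midpoints, in the mouse B cell lymphoma line CH12. They were chosen by their span alone from 2 deposited lists of ChIA-PET interactions, and a pair of anchors found in both lists was counted once. This left 2943 short loops of 17954 interactions in all, or 16.4%. Membership of a list, tags, CTCF peaks and surrounding loops played no part in the choice. The shortest loop spanned 7.40 kb and the median was 31.2 kb.

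The series holds 352 samples, and only CH12 and B cell files of CTCF interactions and peaks were used here. The B cell peak list covers resting and activated B cells together. ChIA-PET pulls down chromatin with an antibody, ligates DNA ends that lie close together and sequences the joined pairs; each supporting pair is called a tag below. Wild-type CH12 cells gave 1 library, and CH12 cells that carry the CTCF mutation labelled ZF9to11, in zinc fingers 9 to 11, gave the other. Each list keeps interactions with 3 or more tags and at most 2 Mb, so an interaction that is not listed is not shown to be absent. With 1 library per genotype, every difference given here is between 2 libraries and has no replicate check, and no test of genotype was possible. The labels do not say whether the mutant cells came from a single clone. The lists hold no value that checks the mutation itself. CTCF binding was read from a list of 39438 peaks in wild-type CH12 cells. No peak list from the mutant cells was used, so sites that only the mutant might bind are not counted. All coordinates are in mm9.

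As background, CTCF binds DNA through an array of zinc fingers at a directional motif. The cohesin ring is thought to extrude a growing loop of chromatin until it meets bound CTCF, which holds many loop ends in place. A loop between neighbouring CTCF sites is the smallest that this arrangement allows, and a loop that passes over sites in between is a larger one. In lymphocytes such loops organise regulatory domains and the antigen receptor loci.

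Short loops were listed more often in the wild-type library. The wild-type list held 2106 of them, 18.3% of its 11534 interactions, and the mutant list held 1690, 14.3% of its 11820 interactions. An interaction is called wild-type-only or mutant-only below when 1 list holds it, and shared when both do. Wild-type-only short loops numbered 1253 (42.6%, Wilson 95% interval 40.8 to 44.4), shared ones 853 (29%, 27.4 to 30.6) and mutant-only ones 837 (28.4%, 26.8 to 30.1). Interactions of 50 kb or more went the other way, as 32.5% were wild-type-only and 37.2% mutant-only. These intervals cover counting error only and treat interactions as independent.

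The excess of wild-type-only over mutant-only short loops held across the genome. Wild-type-only loops outnumbered mutant-only loops on 20 of 20 chromosomes. Their share of a chromosome's loops was higher among short loops than among longer ones on 19 of 20 chromosomes. Chromosome X was the exception, with 15 short loops.

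Within the short loops the shares also moved with span. Wild-type-only loops made up 48.9% of the 90 loops under 10 kb, 48.7% at 10 to 20 kb, 42.0% at 20 to 30 kb, 41.9% at 30 to 40 kb and 38.7% at 40 to 50 kb. Shared loops were rarest at the shortest spans, with 16.7% under 10 kb and 23.4% at 10 to 20 kb, against 31.8% at 40 to 50 kb. The trend ran on past the limit that defines the short loops, to 35.4% wild-type-only at 50 to 100 kb, so the limit marks no step in it.

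**Figure D1:**
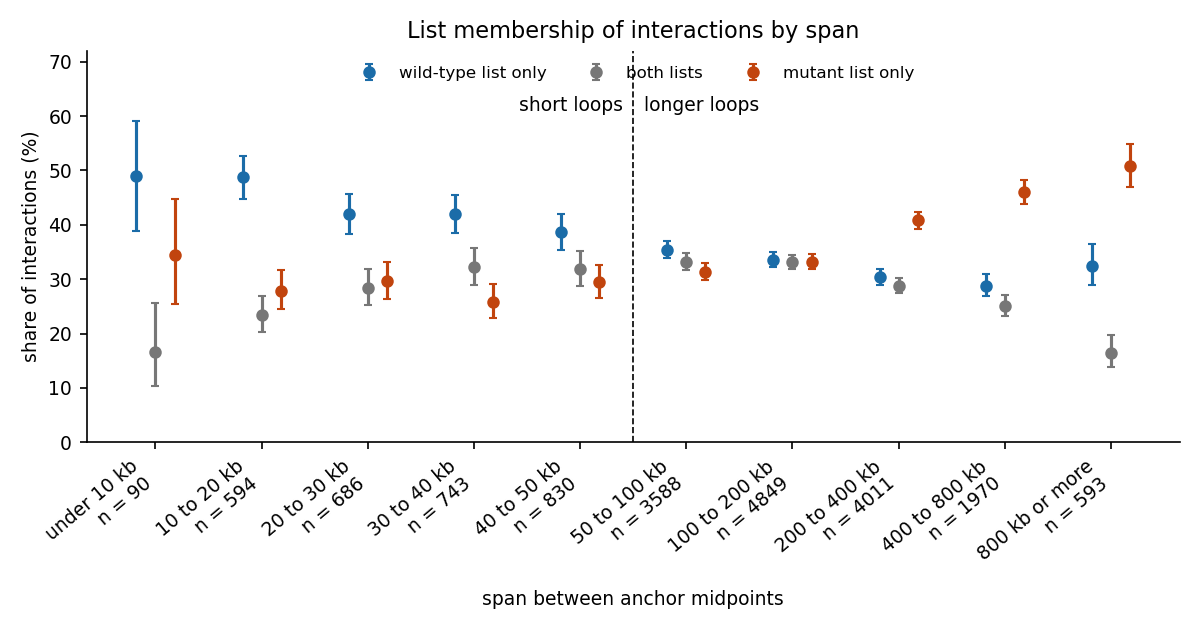
Share of interactions (%) that were wild-type-only, shared or mutant-only, by span between anchor midpoints, with Wilson 95% intervals that cover counting error only. The wild-type-only share falls from 48.9% under 10 kb to 35.4% at 50 to 100 kb, and the mutant-only share is the highest of the 3 from 200 kb upward.

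Many wild-type-only short loops had an anchor that the mutant list did not use. Of the 1253 wild-type-only short loops, 275 (21.9%, 19.7 to 24.3) had both anchors in use elsewhere in the mutant list, 771 (61.5%) had 1 and 207 (16.5%) had none. Of the 837 mutant-only short loops, 282 (33.7%, 30.6 to 37.0) had both anchors in use in the wild-type list, 446 (53.3%) had 1 and 109 (13%) had none. Wild-type-only short loops thus lacked an anchor in the other list more often than mutant-only ones did. The same contrast was present, and larger, at 50 kb or more, where both anchors were in use in the other list for 24.6% of wild-type-only and 43.4% of mutant-only interactions.

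Among the 1410 short loops whose anchors were both in use in both lists, the classes were level, with 275 wild-type-only (19.5%) and 282 mutant-only (20.0%). The ratio of wild-type-only to mutant-only loops was 1.50 over all short loops and 0.975 among these. For interactions of 50 kb or more the ratio was 0.874 over all and 0.495 among those with both anchors in both lists. Among interactions with both anchors in both lists it fell through the span classes, from 0.975 under 50 kb to 0.661, 0.622, 0.428, 0.334 and 0.328 at 800 kb or more. The lower ratio at longer span was therefore present with and without this limit on anchors, while the overall wild-type excess of short loops was not present with it. Under the limit the ratio varied among the steps of span, from 0.625 under 10 kb (10 and 16 loops) to 1.17 at 10 to 20 kb (74 and 63), with 0.889, 1.08 and 0.872 in the steps from 20 to 50 kb. Which cells' peak calls defined the anchors is not stated in the sources used here, and the part that peak calling played was not tested.

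Anchors of short loops found in 1 list often held longer loops in the other list. There were 275 wild-type-only short loops with both anchors in the mutant list. In 252 of them (91.6%) an anchor held a longer mutant loop that reached past the other anchor. With 1 anchor in the mutant list the count was 639 of 771 (82.9%). The values in the opposite direction were 257 of 282 (91.1%) and 317 of 446 (71.1%). The anchors counted here were in use in the other list by selection. Short loops were only 14.3% of the mutant list and 18.3% of the wild-type list, so high shares follow in part from that selection. With both anchors present the shares were alike in the 2 directions, and with 1 anchor present the share was higher for wild-type-only loops. For interactions of 50 kb or more, which leave less room for a longer loop under the limit of 2 Mb, the shares were 69.5% and 70.0% in the first direction and 44.6% and 42.4% in the opposite one. Among shared short loops, 84.8% shared an anchor with a containing mutant loop and 74.7% with a containing wild-type loop. Holding a longer loop was thus common for anchors of shared short loops too. These shares count only containing loops of 50 kb or more, so their basis differs from that of the shares above. On this basis 65.6% of all wild-type-only short loops shared an anchor with a mutant loop. For all mutant-only short loops and wild-type loops it was 60.2%.

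Most short loops had few tags. The median was 4 tags in either list, and the highest count was 259 (wild type) and 256 (mutant). The minimum of 3 tags was the count of 732 of 2106 short loops (34.8%) of the wild-type list and 557 of 1690 (33.0%) of the mutant list. Loops with 20 or more tags numbered 78 (3.70%) and 73 (4.32%). Short loops took 18.7% of listed tags in wild-type cells and 14.6% in mutant cells, although the mutant list had more tags in all (82222 against 74198).

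Short loops with a higher count of tags in either list were more often shared. This follows in part from the minimum of 3 tags in each list. A loop with a highest count of 3 is shared only when both lists give it 3. Of 1052 short loops with a highest count of 3 tags, 52 (4.94%) were shared. The share was 30.4% at 4 to 9 tags, 75.6% at 10 to 19 tags and 87.3% (103 of 118) at 20 or more. Wild-type-only loops outnumbered mutant-only loops at 3 tags (582 and 418), at 4 to 9 tags (602 and 387) and at 10 to 19 tags (62 and 24), but not at 20 or more tags (7 and 8).

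The 853 shared short loops carried 8019 wild-type and 8284 mutant tags. The scaled log2 ratio used below is log2 of mutant over wild-type tags after each count was divided by all listed tags of its list. Over the summed tags it was -0.10 (95% interval -0.15 to -0.06), and 0.09 (0.07 to 0.11) for the 4547 shared interactions of 50 kb or more. The median over the short loops was -0.15, which is also the value of any loop with equal tags in both lists, beside a median of 0.00 over all 5400 shared interactions. Unscaled, 335 short loops had more wild-type tags, 398 had more mutant tags and 120 had equal tags. By 10 kb step the summed ratio was -0.51, -0.26, -0.18, -0.14 and 0.07, the first over 15 loops. Tags thus leaned to the wild-type library, relative to all listed tags, up to 40 kb.

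Past a 2-fold difference after scaling, 123 of the 853 (14.4%) had more wild-type tags and 80 (9.38%) had more mutant tags. Over all 5400 shared interactions the shares were 10.9% and 12.6%. A two-sided exact binomial test of each loop's tags, adjusted by Benjamini-Hochberg over all 5400, called 14 of the 853 (1.64%), which is close to the 1.56% called over all. Of the 14, 10 had more wild-type tags (0.852% of all shared interactions were called in that direction) and 4 had more mutant tags (0.704%). At an unadjusted p under 0.05 there were 84 of the 853 short loops, and 498 of all 5400. These calls compare the reads of 2 libraries.

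**Figure D2:**
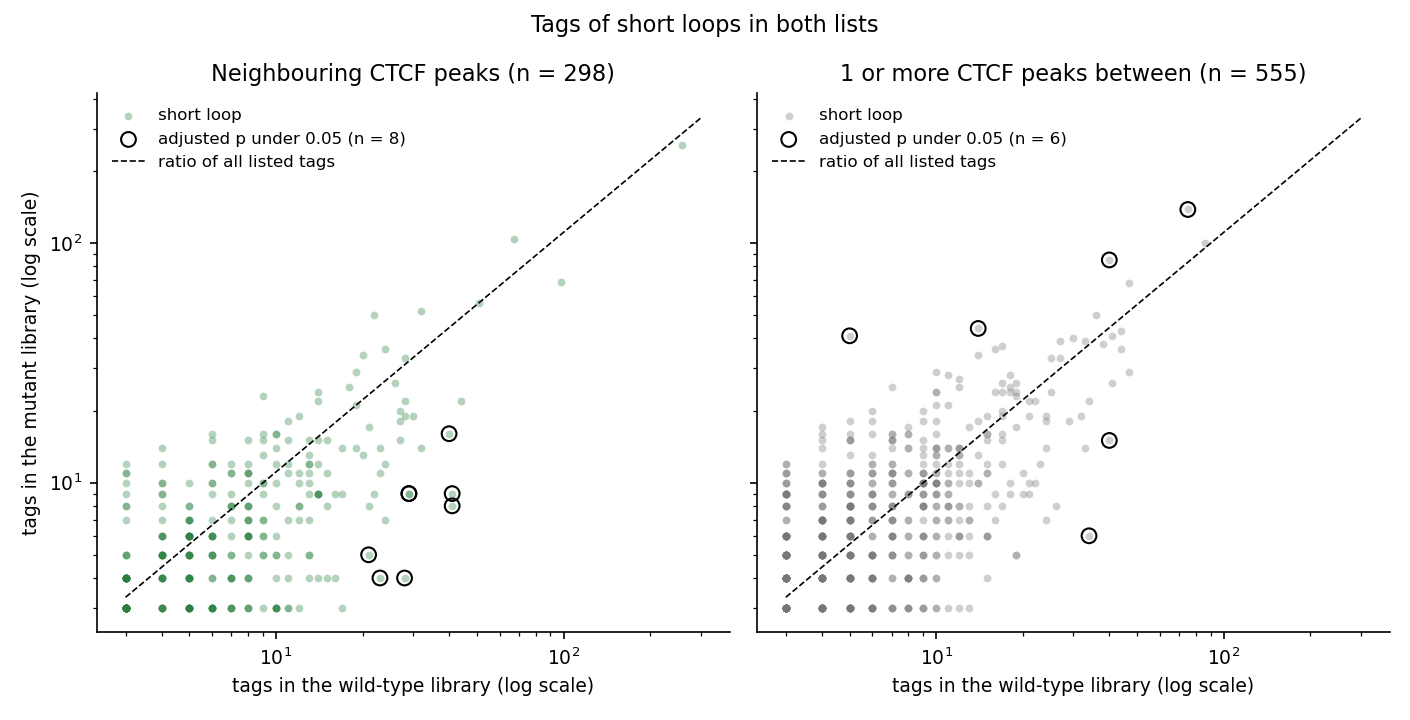
Tags of the 853 shared short loops, wild-type against mutant library on log axes, for 298 loops between neighbouring CTCF peaks (left) and 555 with 1 or more peaks between (right); darker points are overlapping loops, and rings mark the 14 loops called by the binomial test. All 8 rings on the left, of which a pair coincide, lie below the line of the ratio of listed tags, on the wild-type side, and 4 of the 6 on the right lie above it.

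The called loops are best seen by their tags. The loop at chr7:106480787-106514237, which spans 32.3 kb, had 41 wild-type and 8 mutant tags (log2 ratio -2.51, adjusted p = 7.99e-05, exact binomial test). The loop at chr14:54847143-54859377, spanning 11.0 kb, had 41 and 9 (-2.34, adjusted p = 0.000192, exact binomial test). Both join neighbouring CTCF peaks, and the second lies inside 16 larger loops.

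Another 3 loops leaned to the wild type and had the next smallest p-values. The loop at chr7:150079827-150105898 had 34 wild-type and 6 mutant tags, with 1 CTCF peak between its anchors. The loops at chr15:58214673-58243048 (28 and 4 tags) and chr6:29190389-29229615 (23 and 4 tags) join neighbouring peaks. Their adjusted p-values from the exact binomial test were 0.000356, 0.000711 and 0.00893. In each of these 5 loops the wild-type tags were more than 4 times the mutant tags.

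The 4 loops called with more mutant tags all had CTCF peaks between their anchors. So did 555 of the 853 shared short loops, and 2 of the 10 called with more wild-type tags. The loop at chr15:81786219-81820865, spanning 33.4 kb, had 5 wild-type and 41 mutant tags (log2 ratio 2.89, adjusted p = 7.14e-05, exact binomial test). The loop at chr2:168253477-168271666 had 14 and 44 tags, the one at chr11:4118701-4159579 had 75 and 138, and the one at chr14:56440949-56483395 had 40 and 85. Their adjusted p-values were 0.0283, 0.0290 and 0.0436 in the same exact test. The first of the 4 differed about as much as the 5 loops above did in the other direction, and the rest by less, with log2 ratios of 1.50, 0.73 and 0.94.

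Of the 5 shared loops with most tags, 4 did not pass the test. The loop at chr14:103410668-103451403 had 259 wild-type and 256 mutant tags, the most of any short loop; it spans 39.3 kb, joins neighbouring peaks and lies inside 10 larger loops, each of which shares an anchor with it. The loops at chr7:106255816-106300812 (67 and 104 tags), chr11:101780629-101830888 (86 and 100) and chr8:87497823-87514852 (98 and 69) came next among those not called. The fifth, chr11:4118701-4159579, is the called loop with 75 and 138 tags.

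A few short loops with many tags were listed in only 1 library. The highest of the wild-type-only loops were chr7:19885700-19929603 with 38 tags, chr11:117944357-117966093 with 37, chr1:173251263-173289374 and chr17:35394481-35412460 with 28 each, and chr17:34271804-34307291 with 22. The highest of the mutant-only loops were chr10:79387509-79421347 with 41 tags, chr11:100142595-100157567 with 39, chr15:101070819-101115053 with 32, chr5:114223287-114266571 with 27 and chr14:57990884-58028398 with 25. Of these 10 loops, chr17:35394481-35412460 and chr11:100142595-100157567 join neighbouring CTCF peaks, and the other 8 pass over 1 to 4 peaks. When a missing interaction was given 2 tags, the most that the minimum of 3 allows, the binomial test covered all 17954 interactions. It called 37 short loops (1.26%, beside 1.18% of all). Of these, 26 had more wild-type and 11 had more mutant tags. The 212 interactions called over all also leaned to the wild type, with 127 and 85.

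The relation of short loops to CTCF peaks was measured by counting CH12 peak centres between the inner edges of the anchors. A loop with 0 such peaks was called neighbouring. There were 1078 neighbouring short loops (36.6%, 34.9 to 38.4), 899 with 1 peak between (30.5%), 529 with 2 (18.0%) and 437 with 3 or more. The most was 9 peaks, at chr5:120544257-120595252 (mutant-only, 4 tags) and at chr15:103137229-103173671 (5 wild-type and 4 mutant tags). Passing over a called site was thus more common than joining neighbours when all CH12 peaks were counted. With only the peaks from the median score up the majority turned, as 1764 short loops (59.9%) then had 0 peaks between.

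Neighbouring loops became rarer as span grew, as longer stretches hold more peaks by construction. The share was 72.2% under 10 kb, 56.2% at 10 to 20 kb, 41.8% at 20 to 30 kb, 28.3% at 30 to 40 kb and 21.9% at 40 to 50 kb, and 13.4% for loops of 50 to 100 kb. It was 40.8% (38.1 to 43.5) of wild-type-only, 34.9% (31.8 to 38.2) of shared and 32.1% (29.1 to 35.4) of mutant-only short loops. The wild-type-only share was above the mutant-only share in 5 of 5 steps of span, by 79.5% against 64.5% under 10 kb and 22.7% against 19.2% at 40 to 50 kb, and on 16 of 20 chromosomes. Within a step the intervals of the 2 classes overlapped. With B cell peaks the order turned at 10 to 20 kb, with 39.4% of wild-type-only and 42.8% of mutant-only loops, and held in the other 4 steps. Read the other way, wild-type-only loops outnumbered mutant-only loops by a ratio of 1.90 among neighbouring short loops (511 and 269) and 1.31 among the others (742 and 568). With both anchors in use in both lists the ratios were 1.04 and 0.941, so this contrast too was smaller there.

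The tags of shared loops differed by the same feature. The 298 neighbouring loops had 3183 wild-type and 2837 mutant tags, a scaled log2 ratio of -0.31 (-0.39 to -0.24) over the summed tags. The 555 loops with peaks between had 4836 and 5447 tags, a ratio of 0.02 (-0.03 to 0.08). The 2 intervals, which cover the counting of tags only, do not meet. By number of peaks between, the summed ratio was -0.09 with 1 peak, 0.15 with 2 and 0.13 with 3 or more. The median over single loops was -0.15 (-0.37 to -0.15) for neighbouring loops and 0.00 (-0.15 to 0.11) for the others. These intervals touch at -0.15. In each step of span up to 40 kb both medians were -0.15, and at 40 to 50 kb they were -0.31 and 0.22.

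The difference in summed tags did not rest on the loop of most tags or on the called loops. Without the loop of most tags the neighbouring ratio was -0.33, and without the 8 neighbouring loops called by the binomial test it was -0.23. With only loops of 10 or more tags in the lists together it was -0.32, against 0.03 for the others. It was lower for neighbouring loops on 18 of 20 chromosomes and in 4 of 5 steps of span; under 10 kb it was -0.46 over 10 loops against -0.62 over 5. With B cell peaks in place of CH12 peaks the values were -0.43 and 0.00, and with only the CH12 peaks in the upper part of the list, from the median score up, they were -0.20 and 0.09. Both anchors of a shared loop are in use in both lists; how strongly the mutant protein binds them was not analysed here.

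Longer loops showed the same order, so it was not particular to short span. At 50 to 100 kb the ratio was -0.20 (-0.30 to -0.10) for 160 neighbouring loops and 0.08 (0.05 to 0.12) for 1031 others. At 100 to 200 kb it was -0.10 (-0.22 to 0.02) and 0.12 (0.08 to 0.15).

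**Figure D3:**
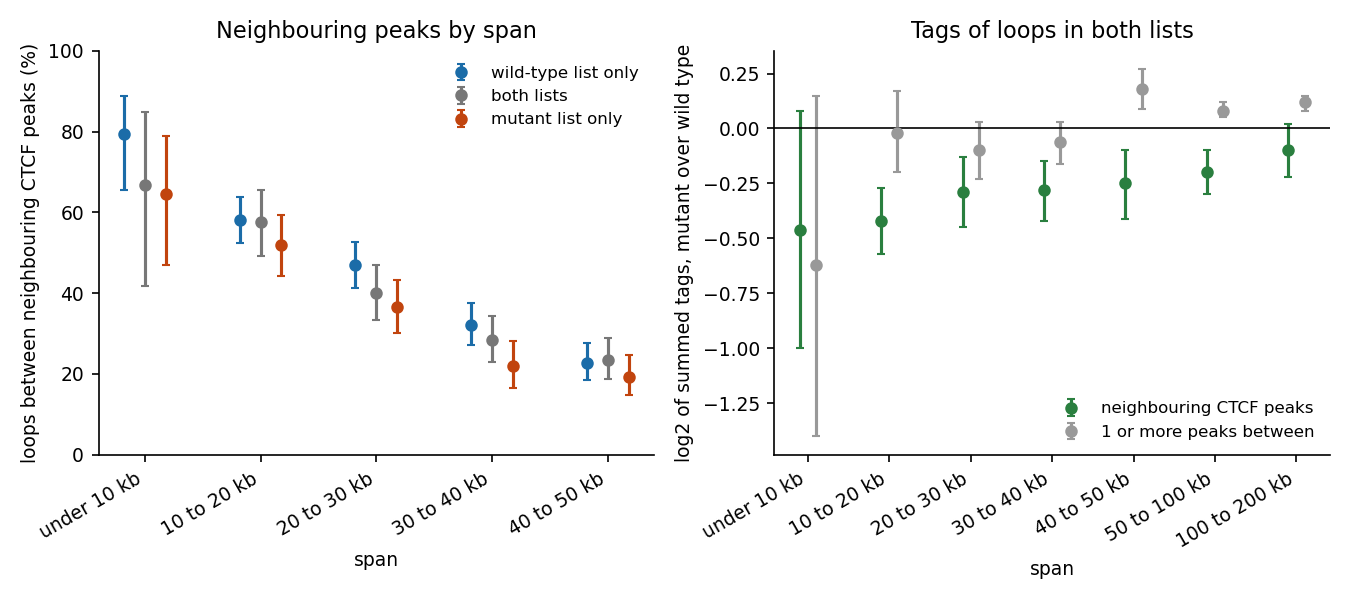
Left, share of short loops (%) with 0 CH12 CTCF peaks between their anchors by span and list membership, with Wilson 95% intervals; the wild-type-only share is above the mutant-only share in each of the 5 steps. Right, log2 of summed tags, mutant over wild type, scaled by all listed tags, for shared loops, with 95% intervals for counting error; neighbouring loops lie below the others from 10 kb to 200 kb and above them under 10 kb, where there are 10 and 5 loops.

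Anchors were set at CTCF peaks, and nearly all short loops had a listed peak at each end. A CH12 peak was at both anchors of 98.0% and a B cell peak at both of 97.2%. For interactions of 50 kb or more the shares were 97.5% and 97.4%, so this was not particular to short loops. The score of a peak was used only as its percentile within the CH12 list. The weaker of the 2 anchors stood at a median percentile of 69.7, and at 64.4 for interactions of 50 kb or more. By class it was 77.7 for shared, 64.8 for wild-type-only and 67.2 for mutant-only short loops. Shared short loops therefore had the stronger anchors, and these were also the loops with more tags.

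Membership varied with that score. When the weaker anchor stood under the 25th percentile (238 loops), 55.0% were wild-type-only and 16.0% shared. At the 75th percentile or above (1215 loops), 34.1% were wild-type-only and 39.2% shared. The mutant-only share was 29% and 26.7% at these ends. Between them it was 35.3% (31.3 to 39.6) from the 25th to the 50th percentile and 26.8% from the 50th to the 75th. The wild-type-only share was 46.8% in both of these middle ranges. The scores come from wild-type cells, and peaks of the mutant cells were not used.

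Sites that short loops passed over were often weaker than their ends. Of 1823 loops with peaks between and a peak at both anchors, the strongest peak between scored below both anchors in 986 (54.1%, 51.8 to 56.4) and above both in 303 (16.6%). Below both was the case in 63.9% (59.8 to 67.8) of shared, 49.8% (46.1 to 53.4) of wild-type-only and 49.9% (45.8 to 54.1) of mutant-only loops. Among loops that passed over exactly 1 peak, that peak stood at a median percentile of 40.3 (35.6 to 48.6) in wild-type-only, 43.1 (37.5 to 49.9) in shared and 47.8 (43.5 to 57.4) in mutant-only loops. The intervals of these 3 medians overlap.

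Most short loops lay inside larger ones. A larger loop of 50 kb or more contained 2684 of the 2943 (91.2%, 90.1 to 92.2), and 259 (8.80%) lay in none. A containing loop shared an anchor with the short loop in 84.1% of cases and shared none in 56.4%, with both kinds for 49.3%. The median number of containing loops was 3 and the highest was 23, at chr12:88135368-88165261, a wild-type-only loop of 28.5 kb with 4 tags. The shortest containing loop had a median span of 99.7 kb, 3.59 times that of the short loop inside it.

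Containment was highest for shared loops, at 95.7% (94.1 to 96.8), against 89.2% (87.4 to 90.8) of wild-type-only and 89.6% (87.4 to 91.5) of mutant-only loops. Counting only wild-type larger loops, 77.5% of short loops were contained, and counting only mutant ones 85.2%. Wild-type-only short loops lay within mutant larger loops in 82.1% (79.9 to 84.1) and within wild-type larger loops in 77.1% (74.7 to 79.3). Mutant-only short loops lay within mutant larger loops in 83.8% and within wild-type ones in 73.7%. Larger loops of the mutant list thus covered more short loops of all 3 classes, shared ones included (91.1% against 81.9%). From 200 kb up the mutant list also held more interactions: 2793 against 2374, 1402 against 1063 and 400 against 291 by span class. It held fewer at 50 to 100 kb (2317 against 2462) and at 100 to 200 kb (3218 against 3238). The part that these counts played was not tested.

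Being inside a loop of 100 kb or more was no more common for short loops than for the next span class. It was the case for 84.4% (83.0 to 85.6) of short loops and 84.3% (83.1 to 85.5) of loops of 50 to 100 kb. Sharing an anchor with such a loop was less common for short loops, at 69.9% (68.2 to 71.6) against 76.2% (74.8 to 77.6). Lying inside such a loop that shared no anchor was more common for short loops, at 53.7% (51.9 to 55.5) against 48.5% (46.9 to 50.2).

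Short loops and the loops around them had similar tags. In the wild-type list 1665 short loops had a containing loop of the same list; the short loop had more tags than its shortest container in 40.2%, equal tags in 16.5% and fewer in 43.4%. In the mutant list the shares over 1478 loops were 40.7%, 14.7% and 44.5%. The 2 libraries therefore gave much the same balance between inner and outer loop.

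Short loops occupied dense parts of the CTCF map, as a short span between anchors at peaks in part implies. Within 250 kb on each side of the midpoint, a window of 500 kb, there was a median of 24 CH12 peaks, against 22 around loops of 50 to 100 kb, 20 at 100 to 200 kb, 16 at 200 to 400 kb and 10 at 400 to 800 kb. The median around all CH12 peaks was 16. The window around a short loop holds its own anchor peaks, and the midpoint of a long loop lies far from its anchors, so the count was repeated with the window on each anchor. That gave 24 for short loops and 17 for interactions of 50 kb or more. The median was higher for short than for longer interactions on 20 of 20 chromosomes with either window. Without the peaks within each loop and its anchors it was 21 for short loops and 10 for longer ones, from which this takes more of the window.

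**Figure D4:**
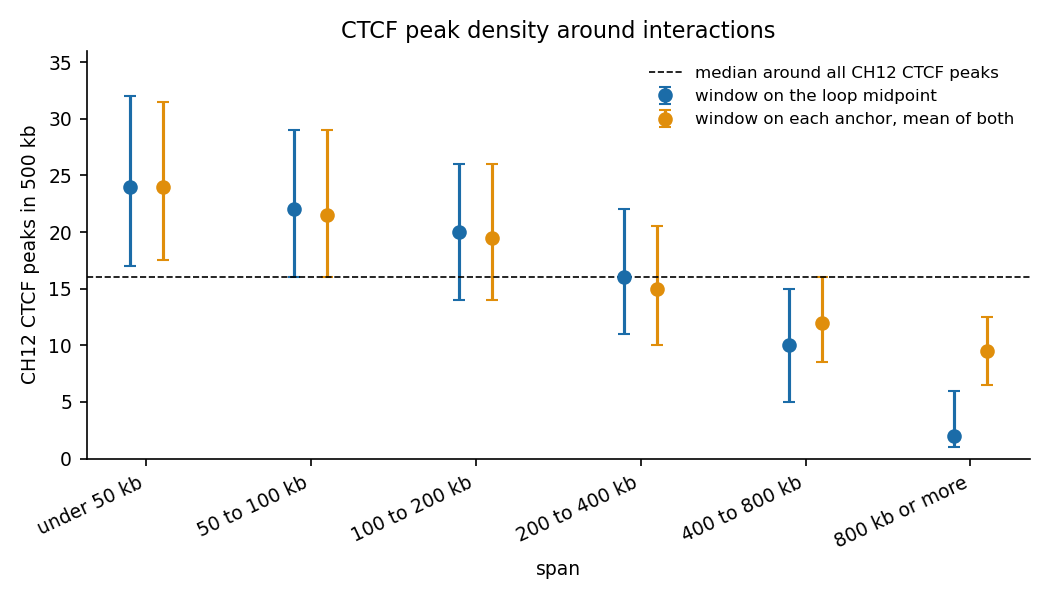
CH12 CTCF peaks in 500 kb around interactions by span class, as the median (points) and quartiles (bars), with the window on the midpoint or on each anchor; the dashed line is the median around all CH12 peaks, 16. The medians fall from 24 under 50 kb to 2.00 (midpoint) and 9.50 (anchors) at 800 kb or more.

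The share of interactions under 50 kb rose with density, in part by construction. Anchors lie at CTCF peaks, so dense peaks place more pairs of anchors within 50 kb of each other. It was 4.85% of the 2988 interactions with fewer than 10 peaks in the window, 12.1% at 10 to 19 peaks, 20.6% at 20 to 29, 28.6% at 30 to 39 and 38.0% of the 594 with 40 or more. The densest surroundings, 58 peaks, were those of chr4:151558204-151587414 (wild-type-only, 3 tags) and chr10:80754949-80805188 (mutant-only, 4 tags). The sparsest, 2 peaks, were those of chr8:40059840-40095236 (wild-type-only, 3 tags).

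Density also differed a little by class. The median was 23 (22 to 24) for wild-type-only, 25 (25 to 26) for shared and 24 (23 to 25) for mutant-only loops. The wild-type-only share was 49.7% (41.6 to 57.7) of the 145 short loops with fewer than 10 peaks around them and 39.4% (33.2 to 45.9) of the 226 with 40 or more. The mutant-only share was 29.7% and 35.4% there, so the surplus of wild-type-only short loops was smallest in the densest regions, though these intervals overlap.

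By chromosome, the share of interactions under 50 kb was highest on chromosome 7 (20.6%), chromosome 4 (19.9%) and chromosome 15 (19.6%). It was lowest on chromosome 13 (9.70%), chromosome X (9.80%, 15 of 153) and chromosome 18 (10.9%). The median density around short loops was 28, 25 and 29 peaks on the first 3 and 15.5, 13 and 19 on the last 3. The order of the chromosomes was not the same by both measures: chromosome 17 had the densest surroundings, with a median of 33 peaks, and a share of 19.1%.

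Short loops used 4739 of the 16928 anchors of both lists (28.0%), and 2999 of these (63.3%) also held a loop of 50 kb or more. An anchor belonged to a single short loop in 80.5% of cases, and to 4 or more in 37 cases, with a highest count of 7. Joined by shared anchors, 1271 short loops (43.2%) stood alone, 706 (24.0%) were in pairs and 966 (32.8%) were in chains of 3 or more. There were 58 chains of 5 or more short loops.

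The largest chain had 11 short loops on 10 anchors at chr4:149486803-149622836, a stretch of 136 kb with 20 CH12 peaks. Of its short loops, 6 were wild-type-only, 3 shared and 2 mutant-only, with 50 wild-type and 32 mutant tags in all. The anchors at 64.0, 81.4, 107 and 128 kb from the start of the chain took part in most of its tags. The loop from 81.4 to 128 kb had 15 wild-type and 6 mutant tags, the loop from 81.4 to 107 kb had 10 and 5, and the loop from 107 to 128 kb had 4 and 10. The loop from 64.0 to 107 kb had 8 tags and was mutant-only, and the longer one from 64.0 to 128 kb had 5 and 15. Loops of this stretch thus differed in opposite directions, on few tags.

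**Figure D5:**
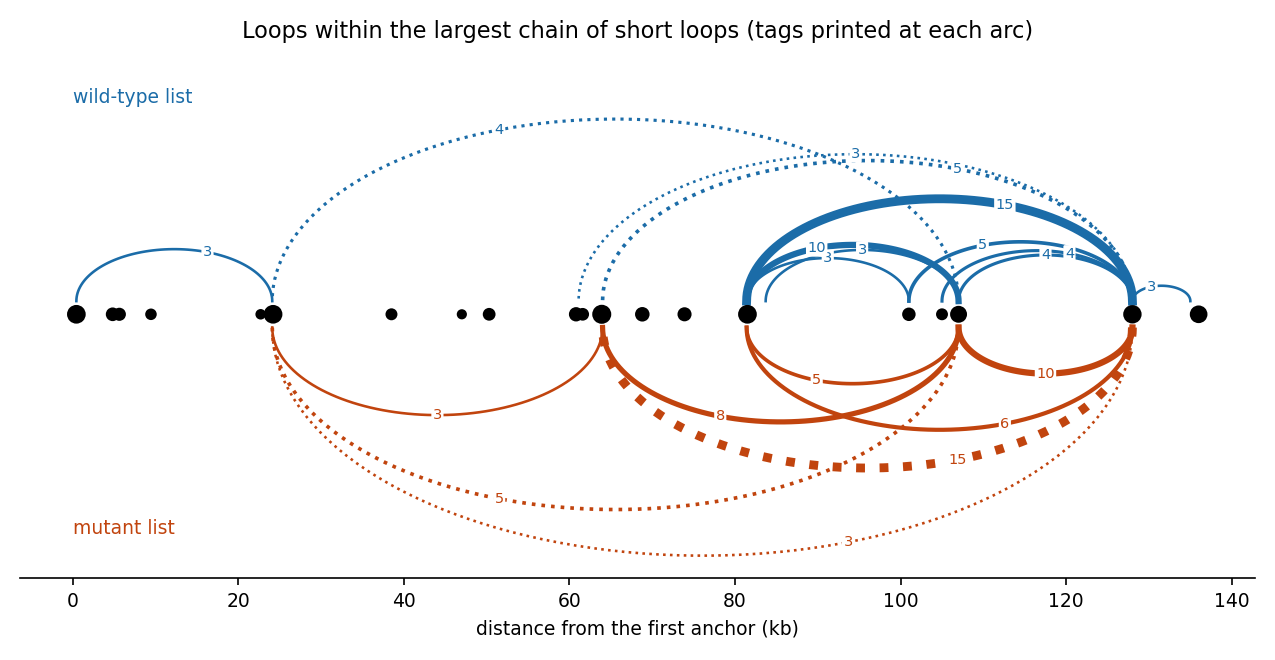
Interactions within the largest chain of short loops, drawn as arcs between anchor midpoints by distance from its first anchor (kb), wild-type list above and mutant list below. Line width and the printed number give the tags, solid arcs are short loops, dotted arcs span 50 kb or more, and black points are CH12 CTCF peaks sized by score percentile; the arc from 81.4 to 128 kb has 15 tags above and 6 below.

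The next chains, with 9 short loops each, lay at chr15:101040337-101146827 and chr15:101818131-101978128. The first had 41 wild-type and 72 mutant tags and includes the mutant-only loop with 32 tags named above. The second had 43 and 67 tags, with 5 of its 9 loops shared. These chains thus had more tags in the mutant library, where the largest had more wild-type tags.

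The limit that defines short loops falls between interactions of nearly equal span. The 3 just inside spanned 49992, 49963.5 and 49957 bp, and were a wild-type-only loop with 5 tags, a mutant-only loop with 4 tags and a shared loop with 7 wild-type and 3 mutant tags. The 3 just outside spanned 50001.5, 50014 and 50026.5 bp, and were shared with 15 and 16, 10 and 8, and 7 and 5 tags. At the other end, the 3 shortest spanned 7.40, 7.41 and 7.64 kb, at chr3:88038746-88047308, chr15:101930330-101940971 and chr10:126760850-126770917, with 3 mutant tags, 4 in each library and 3 wild-type tags.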

How the data were processed

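The interaction lists hold the authors' deposited counts of tags for each interaction, with anchors at CTCF peaks that hold a core motif, at least 3 tags and at most 2 Mb, per the file headers. Each CH12 peak has a score, as deposited; the B cell list, as deposited by the authors, gives each peak a −log10 q-value and a fold over background, of which neither was used. The build was mm9 and the tools named, with no role, were BWA, bedtools 2.25, SAMtools 1.2, Bowtie 1.1.1 and CASAVA 1.8.2, per the submitters' processing notes. The interaction caller, library depth and pooling for peak calls are not stated in the sources used here, and the sum of listed tags is not a depth.

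Groups came from the sample labels. Anchors in the 2 lists were identical or disjoint, so interactions matched by exact anchors. Shares have Wilson 95% intervals, medians have order-statistic intervals and summed ratios have intervals from counting error; all treat interactions or tags as independent. Single loops were compared by an exact binomial test, two-sided, against the ratio of listed tags, adjusted by Benjamini-Hochberg over all shared interactions and called at 0.05. The binomial calls, the counting of peaks and the search for containing loops were tested on simulated data. The tools were scipy 1.17.1, pandas 2.3.3, numpy 2.4.6 and matplotlib 3.10.9 under Python 3.11.15.

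Named loops were the 5 with most tags in each class, up to 5 called in each direction, the 3 shortest, the 3 nearest each side of 50 kb, the extremes of peaks between, of containing loops and of density, the 3 largest chains, and the 3 chromosomes at either end. For these extremes the text gives the leading ones. The members and lists were chosen with earlier results of these data known. Alternatives changed the tag minimum, the match of anchors, the span limit, the scaling, the peak set, the containing loops and the window. Genes and sequence at the loops were not used here, since no genome of the build was at hand.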

Additional observations from a re-analysis of the deposited data

How the results depend on the processing

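No paired analysis was possible because each genotype had a single library, so no replicate numbers pair the lists. Of 37 alternatives over 8 results, 15 kept their value within its interval or, for the count of called loops, within 1.5 times, 22 moved it. The tag ratio of shared short loops changed sign under none of its 6 alternatives. All 6 kept a scaling that gives loops with equal tags a negative value, so a change of sign was hard to reach. With 10 or more tags in the lists together the median was -0.11, with an interval of -0.15 to 0.04. The order of wild-type-only and mutant-only shares and the majority of loops that pass over a peak each turned under 1 alternative, named below. The wild-type-only and mutant-only shares were 35.5% and 22.2% with 4 or more tags, and 33.8% and 22% with anchors matched within 10 kb. With both anchors in use in both lists they were 19.5% and 20.0%, where their order turned. With scaling by shared interactions alone the tags had a median log2 ratio of -0.21. Giving missing interactions 2 tags called 37 loops, with more tested. The neighbouring share was 59.9% with the higher-scoring CH12 peaks (median score and up) and 24.6% with B cell peaks, by construction from fewer and more peaks (the first turned the majority), and 42.4% with a limit of 40 kb. The share inside larger loops was 56.4% sharing no anchor, 87.7% with loops of at most 400 kb, 82.9% with loops of 4 or more tags, 77.5% with wild-type loops and 85.2% with mutant loops, by construction lower. Median density was 11.0 with 100 kb and 43.0 with 500 kb on each side, 14 with stronger peaks, 21 without peaks of the loop and 34.0 with B cell peaks; short loops had the higher median than longer interactions under each. Counting anchors within 10 kb as in use gave 45.3% of wild-type-only loops with both anchors in the mutant list. Elsewhere the cause was not tested. The limit to anchors in both lists, the loop of most tags left out, the limit to loops with a peak at both anchors, the window on anchors and the doubling of the smaller tail (13 loops called) were chosen after seeing the data, as were the repeats of the tag ratio with other peaks and with 10 or more tags. The minimum of 3 tags and the single library per genotype limit every value: weak loops are not counted, and the spread between cultures is unknown.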
